A study of Mus musculus with 24 samples.

Results

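The 10 genes described here mark the cells of the blood vessel wall in the spinal cord: Cldn5, Pecam1, Flt1, Cdh5 and Tek for endothelial cells, Myh11, Acta2 and Tagln for smooth muscle cells, and Pdgfrb and Rgs5 for pericytes. They were chosen by name as known markers of these cells, though with earlier results of these data known. The files list 38924 genes, of which 17409 were high enough to test, and all 10 vascular genes were among those tested. RNA was sequenced from whole spinal cord of 24 mice aged 8 weeks, 13 male and 11 female, all labelled with the mixed strain background B6J;CASTxB6.129. Gcn2, whose gene symbol is Eif2ak4, was intact on both copies (+/+), on 1 (+/-) or on neither (-/-), and the mice had either wild-type Gars or 1 copy of the mutant allele P278KY (P278KY/+, called mutant here). With wild-type Gars there were 4 Gcn2+/+, 4 Gcn2+/- and 3 Gcn2-/- libraries, and with mutant Gars 4 Gcn2+/+, 4 Gcn2+/- and 5 Gcn2-/- libraries. Sex was unevenly spread over these groups. No Cre driver or promoter is named for the Gcn2 loss. The labels do not say in words that each library is a separate animal, so the p-values below measure the spread between these libraries. Replicate numbers were given in accession order and only name libraries.

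Capillaries of the spinal cord are tubes of endothelial cells that are sealed by tight junctions and form the barrier between blood and nervous tissue. Pericytes sit on the outside of the capillary and are recruited by platelet-derived growth factor from the endothelium, while arterioles are wrapped in contractile smooth muscle. Gcn2 is a kinase that senses uncharged tRNA and starts the integrated stress response, and Gars encodes glycyl-tRNA synthetase, mutant in a form of Charcot-Marie-Tooth neuropathy.

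Library totals ran from 19.7 to 32.4 M counts (M, mega), and no vascular gene was at 0 in any library, with expected counts from 75 to 5824. Eif2ak4 followed its labels, with 28.9 to 34.4 CPM (counts scaled to a common library total, with TMM) in Gcn2+/+, 20.4 to 23.6 in Gcn2+/- and 11.4 to 15.0 in Gcn2-/- libraries. Genes that define spinal cord tissue were present in every library, none of the 10 listed being at 0 in any. Beside the cord, the libraries held markers of its coverings and roots in uneven amounts. The summed level of 16 meningeal and fibroblast genes was 2386 CPM in replicate 4 of the Gcn2+/+ Gars mutants and 1205 CPM in replicate 3 of the Gcn2+/- mice with wild-type Gars, against 664 in the next library and a median of 420. Schwann cell and nerve root genes were highest in the same libraries, at 3954 and 3527 CPM, against 2194 in the next and a median of 981.

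Start regions from RefSeq (GRCm38.p6) were searched for 5 of the 10 genes, namely Cldn5, Flt1, Tek, Acta2 and Rgs5. None was searched for Pecam1, Cdh5, Myh11, Tagln and Pdgfrb. The 250 bases before the gene start were searched on both strands for AGGAAG (a core that ETS factors of endothelial cells bind), for the promoter element CCAAT and for the TATA box as TATAAA. They were also searched for the CArG box of smooth muscle genes, and for a CArG-like element in which 1 of the 6 inner A or T bases of that box is C or G. Among the same windows of 32851 RefSeq promoters, 29.5% held AGGAAG, 33.8% held CCAAT and 12.4% held TATAAA, while 1.47% held a CArG box and 7.24% a CArG-like element. The windows of Cldn5, Flt1 and Rgs5 are shown because these genes had, in turn, the one endothelial difference without overlap in Gcn2+/+ mice, the steadiest level and a wide spread within genotypes. Capitals mark the motif matches, and ATTGG is CCAAT on the opposite strand. The matches did not overlap each other.
Cldn5, chr16:18776597-18776846, plus strand: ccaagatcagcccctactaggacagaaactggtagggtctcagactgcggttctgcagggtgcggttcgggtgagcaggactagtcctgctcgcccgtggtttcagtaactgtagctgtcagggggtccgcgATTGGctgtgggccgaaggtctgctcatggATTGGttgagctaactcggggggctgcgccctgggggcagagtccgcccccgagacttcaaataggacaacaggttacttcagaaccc
Flt1, chr5:147726012-147726261, minus strand: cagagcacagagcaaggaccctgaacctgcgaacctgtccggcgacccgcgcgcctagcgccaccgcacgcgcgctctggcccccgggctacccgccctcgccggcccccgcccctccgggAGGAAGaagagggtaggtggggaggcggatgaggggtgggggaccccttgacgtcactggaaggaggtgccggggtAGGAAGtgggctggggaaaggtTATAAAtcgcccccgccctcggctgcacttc
Rgs5, chr1:169655251-169655500, plus strand: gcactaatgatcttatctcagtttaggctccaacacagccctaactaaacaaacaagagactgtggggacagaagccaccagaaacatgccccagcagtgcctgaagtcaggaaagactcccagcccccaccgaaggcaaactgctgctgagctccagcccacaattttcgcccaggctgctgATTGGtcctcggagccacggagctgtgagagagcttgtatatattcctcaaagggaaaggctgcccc

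The Cldn5 window held 2 CCAAT matches and the Rgs5 window 1, at -67 from the gene start, while the Flt1 window held 2 AGGAAG matches and TATAAA at -31. In the Tek window no match of any motif was found. The Acta2 window held 2 CArG-like elements and no CArG box. The stretches of 30 bases around them are shown because serum response factor is known to act on smooth muscle genes through such elements, and capitals mark the elements, at -84 to -75 and at -34 to -25 from the gene start in the RefSeq table (34255373). In GENCODE M21 the Acta2 gene starts at 34255590, so by that annotation both stretches lie inside the gene. A match describes the letters and not binding.
Acta2 upstream element, chr19:34255438-34255467, minus strand: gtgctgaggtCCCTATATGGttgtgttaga
Acta2 downstream element, chr19:34255388-34255417, minus strand: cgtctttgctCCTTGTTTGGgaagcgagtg

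Levels per transcript length are given in the deposited TPM (transcript abundance corrected for length and scaled to a common total), over all 24 libraries. Rgs5, a regulator of G protein signaling that marks pericytes, had the highest level at 53.8 ± 15.3 TPM (SD, n = 24). Next came the tight junction protein Cldn5 at 42.7 ± 7.37 TPM, which overlapped Rgs5 within these spreads, and Flt1, a receptor of vascular endothelial growth factor, at 28.3 ± 2.66 TPM. The adhesion molecule Pecam1 had 14.0 ± 2.10 TPM and Acta2, smooth muscle actin, 12.5 ± 4.86 TPM. The next 4 levels lay close together and within each other's spread, with 9.12 ± 2.14 TPM for the growth factor receptor Pdgfrb, 8.41 ± 4.49 for the actin-binding protein Tagln, 8.40 ± 2.01 for the endothelial cadherin Cdh5 and 8.22 ± 1.25 for the angiopoietin receptor Tek. Smooth muscle myosin, Myh11, was lowest at 4.29 ± 1.23 TPM. On GRCm38, Cldn5 lies on chromosome 16 (18776847 to 18778262), as does Myh11 (14194535 to 14291372), and Acta2 lies on chromosome 19 (34241090 to 34255590). Tagln lies on chromosome 9 (45929619 to 45936058), where it overlaps Pcsk7 on the other strand.

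The genes differed in how steady they were from library to library. Flt1 varied least, with a highest CPM that was 1.36 times its lowest and an SD of 0.12 on the log2 scale within genotypes. Tagln varied most, with a ratio of 6.40 and an SD of 0.53. Rgs5, in spite of its high counts, had a ratio of 3.40.

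**Figure D1:**
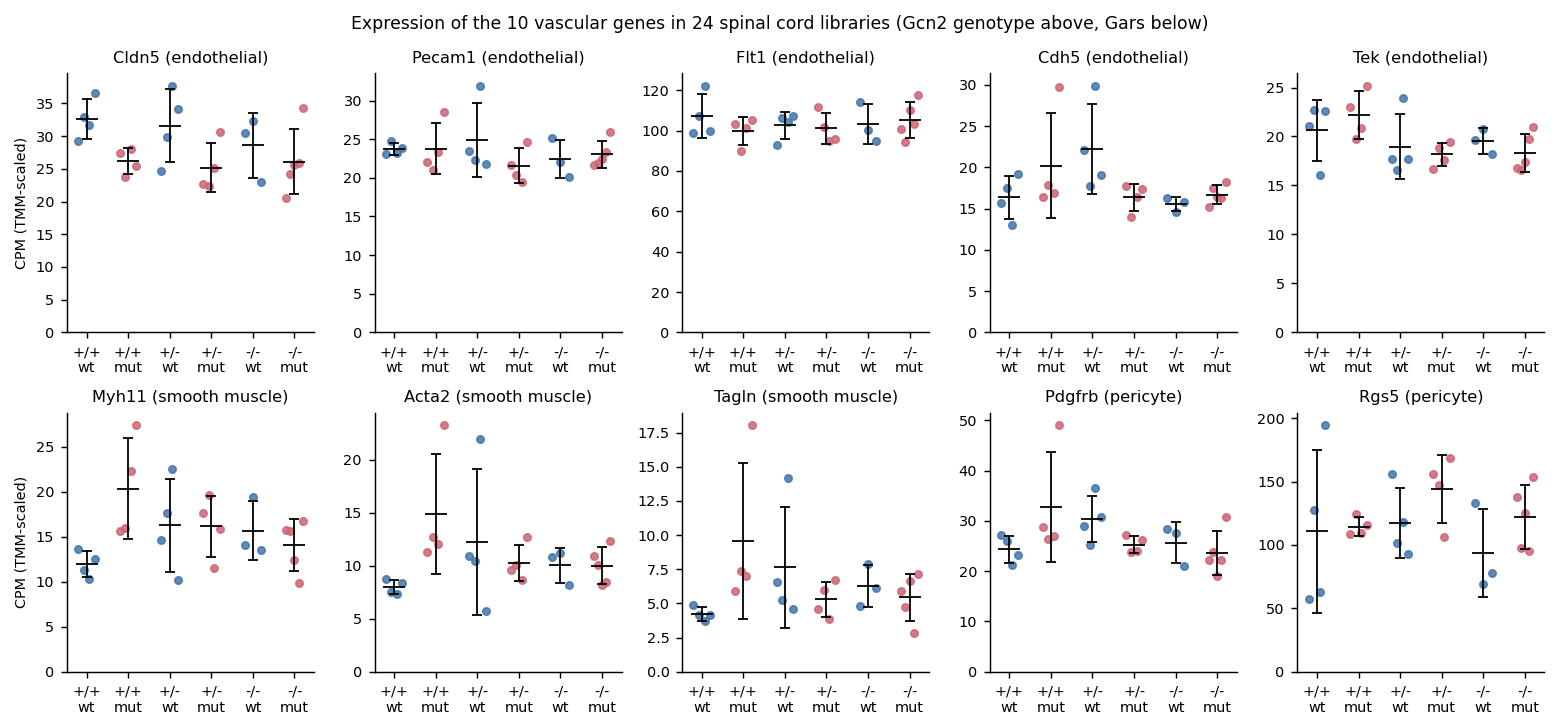
Each panel plots one gene's CPM (y axis, from 0) in the 24 libraries by Gcn2 genotype and Gars genotype (x axis; wt, wild-type; mut, mutant), with points for libraries and bars for the mean and SD. Myh11, Acta2 and Tagln are higher in all 4 Gcn2+/+ mutants than in their 4 controls, single libraries stand far above their group for Acta2, Tagln, Cdh5 and Pdgfrb, and Rgs5 is spread most widely in the Gcn2+/+ mice with wild-type Gars.

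The first question was whether the vascular genes differed among the 6 genotypes at all. None of the 10 passed edgeR's quasi-likelihood F test at a Benjamini-Hochberg adjusted p below 0.05, where 0.73% of all tested genes did. At an unadjusted p below 0.05 there were 2, against 14.3% of all genes: Cldn5, with an adjusted p of 0.272, and Cdh5, with 0.323. DESeq2 also called 0 of the 10, and 5.09% of the genes to which it gave an adjusted p.

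With Gcn2 intact, Gars mutants had higher values of the smooth muscle genes and lower values of Cldn5 than their controls, in no case past edgeR's threshold over all genes. Myh11 had 13.7, 11.3, 10.3 and 12.5 CPM in the 4 Gcn2+/+ mice with wild-type Gars and 15.6, 16, 22.4 and 27.4 CPM in the 4 mutants. Acta2 had 8.73, 7.55, 7.32 and 8.36 CPM in the same controls and 11.3, 12.7, 12.1 and 23.3 CPM in the mutants. Tagln had 4.89, 4.15, 3.70 and 4.11 CPM in the controls and 5.89, 7.34, 7.00 and 18.1 CPM in the mutants. For all 3 genes the lowest mutant lay above the highest control, with replicate 4 of the mutants the highest. In bulk tissue, fewer cells of a type and less RNA per cell cannot be told apart.

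The fitted differences of the smooth muscle genes were large and imprecise. Myh11, the motor protein of the contractile apparatus, was 0.83 ± 0.24 higher on the log2 scale (SE, 95% interval 0.33 to 1.34; edgeR adjusted p = 0.108). Acta2, its actin partner, was 0.92 ± 0.31 higher (0.27 to 1.56; edgeR adjusted p = 0.147). Tagln, which binds actin filaments in the same cells, was 1.18 ± 0.40 higher (0.34 to 2.02; edgeR adjusted p = 0.151). DESeq2 with the same design called 2 of the 10 genes, Myh11 (adjusted p = 0.0234) and Tagln (adjusted p = 0.0499), against 4.32% of all genes with a DESeq2 adjusted p. EdgeR called 0, against 0.632% of all genes. At an unadjusted p below 0.05 edgeR had 5 of the 10 (Cldn5, Myh11, Acta2, Tagln and Pdgfrb), against 17.3% of all tested genes. The median difference of the 10 was 0.17, against 0.01 over all genes tested.

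Cldn5 went the other way. It had 29.3, 32.8, 31.7 and 36.6 CPM in the 4 Gcn2+/+ controls and 27.5, 23.8, 28.1 and 25.4 CPM in the 4 mutants, so that every mutant lay below every control. The difference was -0.39 ± 0.14 (log2, 95% interval -0.69 to -0.10; edgeR adjusted p = 0.166). Cldn5 is added here because its groups do not overlap, a choice made after its values were seen. Groups without overlap were found for 4 of the 10 genes (Myh11, Acta2, Tagln and Cldn5) and for 8.23% of all tested genes in this comparison. Of the Gcn2+/+ controls only replicate 4 was female, and of the Gcn2+/+ mutants only replicate 1 was male. The CPM values and their overlap are not adjusted for sex, whereas the fitted differences are.

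The other endothelial genes had smaller differences in Gcn2+/+ mice, fitted at 0.00 for Pecam1, -0.08 for Flt1, 0.26 for Cdh5 and 0.07 for Tek (log2). Pecam1 had 23.7 ± 0.762 CPM (SD, n = 4) in controls and 23.7 ± 3.31 (n = 4) in mutants, and Flt1 107 ± 10.8 and 99.9 ± 6.85. Cdh5 had 15.7, 17.5, 13.1 and 19.2 CPM in controls and 16.4, 17.8, 16.9 and 29.8 CPM in mutants, where replicate 4 stood far above the others. Tek had 20.6 ± 3.10 CPM in controls and 22.2 ± 2.43 in mutants. For these 4 genes the groups overlapped. Pecam1 counts were whole in 0 of 24 libraries, which shows that some of its reads were shared out between genes, so its level is less certain than those of the other genes.

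Of the pericyte genes, Pdgfrb had 27.1, 25.9, 21.2 and 23.2 CPM in the Gcn2+/+ controls and 28.7, 26.3, 27.0 and 49.1 CPM in the mutants. Only replicate 4 of the mutants lay well above the controls. Rgs5 had 57.2, 128, 62.8 and 195 CPM in the controls and 108, 124, 109 and 115 CPM in the mutants. The controls thus held both the lowest and the highest Rgs5 level of all 24 libraries, while the mutants lay close together.

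The library highest in meningeal genes was one of the 4 Gcn2+/+ mutants, so the smooth muscle values were set beside the meningeal ones. Summed CPM of the 16 meningeal and fibroblast genes ran from 314 to 447 in Gcn2+/+ controls, 200 to 2386 in Gcn2+/+ mutants, 435 to 1205 and 343 to 598 in Gcn2+/- controls and mutants, and 314 to 596 and 348 to 435 in Gcn2-/- controls and mutants. Of the 18 genes listed, Slc22a6 and Slc47a1 were at 0 in some library and too low to test, and the other 16 were present in all. All 16 had a difference above 0 in the Gcn2+/+ comparison, with a median of 2.54 on the log2 scale. EdgeR called 0 of them, and 14 had an unadjusted p below 0.05, against 17.3% of all tested genes. The summed CPM of Myh11, Acta2 and Tagln ran from 21.3 to 27.3 in Gcn2+/+ controls and from 32.8 to 68.8 in mutants, and its highest values, 68.8 and 58.6, were in the 2 libraries highest in meningeal genes. The mutant lowest in meningeal genes, at 200 CPM, had a smooth muscle sum of 32.8, above all 4 controls.

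Without those 2 libraries the smooth muscle differences in Gcn2+/+ mice were 0.65 ± 0.22 for Myh11, 0.61 ± 0.20 for Acta2 and 0.68 ± 0.26 for Tagln, with edgeR adjusted p of 0.17, 0.151 and 0.223. The Tagln value was thus smaller by more than 1.5 times on the log2 scale. Leaving out the 2 libraries did not level the meningeal genes between the groups. Of the 15 then tested, 14 had a difference above 0, with a median of 0.884. EdgeR called 0 of them, and 7 had an unadjusted p below 0.05. Of 13 Schwann cell and nerve root genes, 12 were above 0, with 0 called and 4 at an unadjusted p below 0.05. Of all 17295 genes then tested, 8864 were above 0 and 2733 had an unadjusted p below 0.05. EdgeR called 46 of them up and 62 down. With the mean meningeal level as a term of the fit, the differences were 0.57 for Myh11, 0.38 for Acta2 and 0.47 for Tagln. Cldn5 had -0.37 without the libraries and -0.41 with the meningeal term. Cdh5 and Pdgfrb, at 0.26 and 0.39 with all libraries, had 0.03 and 0.15 without the 2 libraries. The part of meningeal tissue in the values, with all libraries or without the 2, was otherwise not tested.

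**Figure D2:**
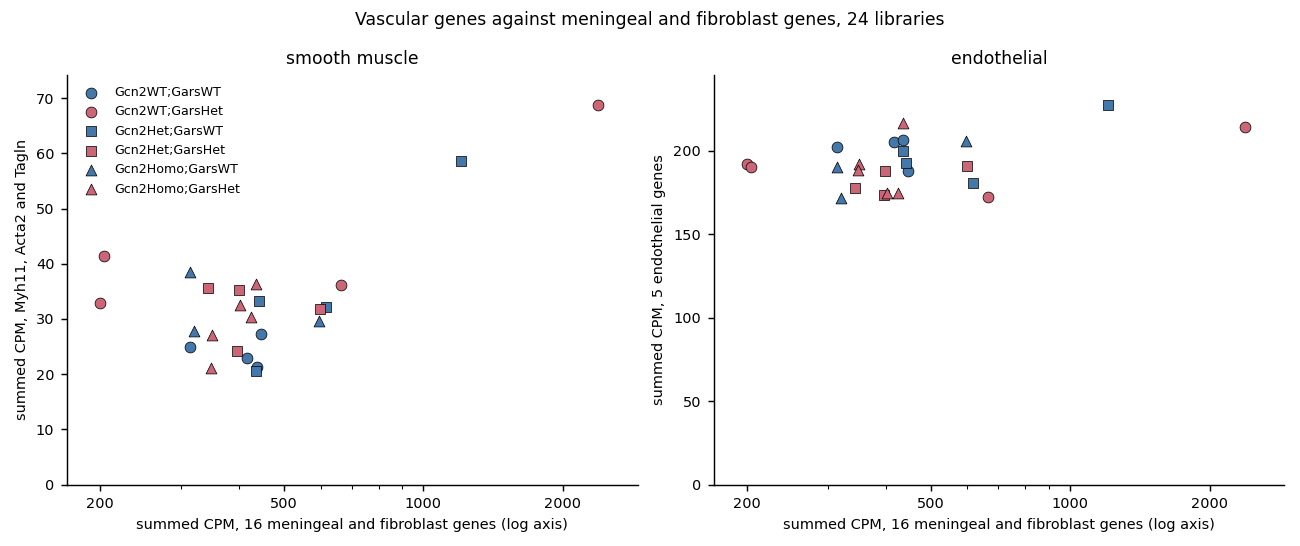
Summed CPM of Myh11, Acta2 and Tagln (left, y axis) and of the 5 endothelial genes (right, y axis) against the summed CPM of 16 meningeal and fibroblast genes (x axis, log scale), one point per library, with shapes for Gcn2 and colors for Gars genotype. The libraries at 1205 and 2386 on the x axis have the highest smooth muscle sums, 58.6 and 68.8, while all 4 Gcn2+/+ mutants, from 200 upward on the x axis, lie above the 4 Gcn2+/+ controls in the left panel.

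The labels begin with a number shared by 1 to 6 libraries, and these numbers fall into a lower and a higher set of 12 libraries each, whose meaning is not stated. Within the lower numbers (2 mutants, 1 control) Myh11 differed by 0.86, Acta2 by 0.67, Tagln by 0.79 and Cldn5 by -0.19 on the log2 scale in Gcn2+/+ mice. Within the higher numbers (2 mutants, 3 controls) the differences were 0.75, 1.07, 1.39 and -0.41. Each of the 4 genes kept its direction in both sets. Differences within sets are plain differences of mean log2 CPM, not adjusted for sex.

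In Gcn2-/- mice the vascular genes showed no difference by Gars genotype that passed a test. Myh11 had 14.1, 19.4 and 13.6 CPM in the 3 mice with wild-type Gars and 15.7, 15.6, 12.4, 9.86 and 16.8 CPM in the 5 mutants. Acta2 had 10.8, 11.2 and 8.16 CPM, and 10.9, 10.1, 8.14, 8.47 and 12.4 CPM. Tagln had 4.83, 7.88 and 6.09 CPM, and 5.92, 4.74, 6.60, 2.82 and 7.16 CPM. Mutants and controls overlapped for every one of the 10 genes, where 3.83% of all tested genes had no overlap.

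The smallest p among the 10 in Gcn2-/- mice belonged to Rgs5, Myh11 and Cldn5. Rgs5 had 133, 69.2 and 77.8 CPM in controls and 137, 97.8, 125, 95.2 and 153 CPM in mutants, a difference of 0.39 ± 0.33 (log2). Myh11 differed by -0.19 ± 0.24 (95% interval -0.69 to 0.31) and Cldn5 by -0.10 ± 0.14 (-0.39 to 0.20). EdgeR and DESeq2 called 0 of the 10, and 0 had an unadjusted p below 0.05. Over all genes, 0.0115% passed edgeR's adjusted and 4.35% its unadjusted threshold, and 0.15% that of DESeq2. Leaving out replicate 2 of the Gcn2-/- controls gave Myh11 a difference of 0.01, and leaving out their replicate 1 gave Cldn5 0.04, so neither direction was firm. The Rgs5 difference ranged from 0.205 without replicate 2 of the controls to 0.84 without their replicate 1. The controls all had lower title numbers, and against the 2 mutants of that set Rgs5 differed by 0.63, Myh11 by -0.10 and Cldn5 by 0.07.

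In Gcn2+/- mice all 5 endothelial genes had a fitted Gars difference below 0, and none was called. Cldn5 had 24.7, 29.8, 37.7 and 34.2 CPM in the 4 controls and 22.7, 22.4, 25.2 and 30.6 CPM in the 4 mutants, and the groups overlapped. Cdh5 had 22.2, 17.8, 29.9 and 19.1 CPM in controls and 17.7, 14.0, 16.4 and 17.4 CPM in mutants, and it was the 1 gene of the 10 without overlap, as were 7.19% of all tested genes. Pecam1 had 23.5, 22.3, 31.9 and 21.8 CPM in controls and 21.7, 20.4, 19.5 and 24.6 CPM in mutants. Replicate 3 of the controls, one of the libraries highest in meningeal genes, was the highest control for all 3.

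The fitted differences in Gcn2+/- mice were -0.37 ± 0.14 for Cldn5 (log2, 95% interval -0.66 to -0.08; edgeR adjusted p = 0.251), -0.47 ± 0.18 for Cdh5 (-0.83 to -0.10; edgeR adjusted p = 0.259) and -0.21 ± 0.12 for Pecam1 (-0.45 to 0.03; edgeR adjusted p = 0.411). The smallest in size was that of Flt1 (-0.01). EdgeR and DESeq2 called 0 of the 10, and 2 (Cldn5 and Cdh5) had an unadjusted p below 0.05, against 0.178% of all genes by edgeR's adjusted p, 1.51% by that of DESeq2 and 14.7% by unadjusted p. Without the 2 libraries Cldn5 had -0.27, Cdh5 -0.28 and Pecam1 -0.07. With the title number as a term, Cdh5 had 0.015 and Pecam1 0.014. Within the lower and the higher title numbers (2 mutants and 2 controls each) Cldn5 differed by -0.46 and -0.18, and Cdh5 by -0.61 and -0.22. The smooth muscle genes, at 0.02 for Myh11, -0.24 for Acta2 and -0.53 for Tagln, overlapped between the groups. They had 0.21, 0.20 and -0.05 without the 2 libraries, so that the Acta2 difference turned.

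**Figure D3:**
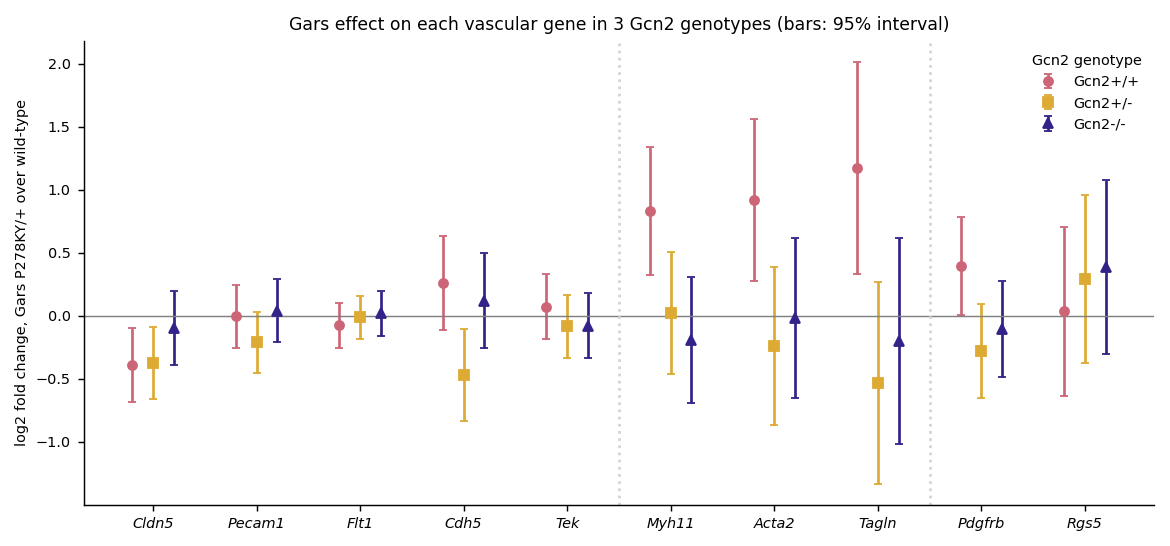
The log2 difference between Gars mutant and wild-type mice (y axis) is plotted for each vascular gene (x axis) in Gcn2+/+, Gcn2+/- and Gcn2-/- mice, as the fitted value with its 95% interval. The Gcn2+/+ intervals of Myh11, Acta2 and Tagln lie above 0 and that of Cldn5 below 0, the Gcn2+/- intervals of Cldn5 and Cdh5 lie below 0, and all 10 Gcn2-/- intervals include 0.

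Whether the Gars difference itself depended on Gcn2 was tested as an interaction. Between Gcn2-/- and Gcn2+/+ mice it differed by -1.03 ± 0.35 for Myh11 (log2, 95% interval -1.76 to -0.30), -1.37 ± 0.58 for Tagln (-2.59 to -0.16) and -0.94 ± 0.44 for Acta2 (-1.85 to -0.02), each with an edgeR adjusted p of 0.937. These 3 genes were the 3 of 10 with an unadjusted p below 0.05, against 4.93% of all genes, and edgeR and DESeq2 called 0 of the 10, where edgeR called 0.0115% and DESeq2 0.202% of all genes. Without the 2 libraries high in meningeal genes the values were -0.84, -0.88 and -0.63. A difference between the Gcn2 genotypes was thus not shown for any of the 10 genes.

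Between Gcn2+/- and Gcn2+/+ mice the Gars difference of Tagln differed by -1.71 ± 0.53 (log2; edgeR adjusted p = 0.0665), that of Cdh5 by -0.73 ± 0.24 (edgeR adjusted p = 0.0803) and that of Acta2 by -1.16 ± 0.41 (edgeR adjusted p = 0.0962). EdgeR called 0 of the 10, and 5 (these 3, Myh11 and Pdgfrb) had an unadjusted p below 0.05, against 3.7% and 23.4% of all tested genes. DESeq2 called 3, Cdh5 (adjusted p = 0.0451), Acta2 (0.0485) and Tagln (0.0206), against 10.2% of all genes with a DESeq2 adjusted p. Each of the 2 libraries high in meningeal genes belongs to an arm of this comparison, and without them the values were -0.73 for Tagln, -0.31 for Cdh5 and -0.41 for Acta2, with edgeR adjusted p of 0.293, 0.294 and 0.432. Both interactions share the 8 Gcn2+/+ libraries with each other and with the Gcn2+/+ comparison above, so they are not separate evidence.

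Loss of Gcn2 alone, with wild-type Gars, left all 10 genes uncalled. Against Gcn2+/+, Gcn2-/- mice had Myh11 0.45 ± 0.25 higher, Cldn5 -0.25 ± 0.15 and Tagln 0.57 ± 0.42 (log2; edgeR adjusted p = 1 for each). EdgeR and DESeq2 called 0 of the 10 and 0 had an unadjusted p below 0.05, against 0.0287%, 0.219% and 3.68% of all genes. Without replicate 2 of the Gcn2-/- mice Myh11 had 0.25 and Tagln 0.39, and without their replicate 3 Cldn5 had -0.096. The 3 Gcn2-/- libraries with wild-type Gars all had lower title numbers, and 3 of the 4 Gcn2+/+ controls had higher ones. Genotype and title set can therefore hardly be told apart in this comparison. Gcn2+/- mice had Cdh5 0.45 ± 0.17 higher (edgeR adjusted p = 0.198), Tagln 0.86 ± 0.38 (0.25) and Acta2 0.61 ± 0.29 (0.291). Here too edgeR and DESeq2 called 0 of the 10, with 2 (Cdh5 and Tagln) at an unadjusted p below 0.05, against 0% by edgeR, 3.36% by DESeq2 and 17.2% by unadjusted p over all genes. Replicate 3 of the Gcn2+/- mice, second in meningeal genes, carried much of these differences: without it Cdh5 had 0.26, Tagln 0.37 and Acta2 0.175. With the title number as a term of the fit, Acta2 turned to -0.29 and Tagln to -0.24. These comparisons use the same 4 Gcn2+/+ controls as the Gcn2+/+ Gars comparison.

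Among Gars mutants, the fitted difference between Gcn2-/- and Gcn2+/+ mice was below 0 for Pdgfrb and for all 3 smooth muscle genes, and none was called. Pdgfrb had 28.7, 26.3, 27.0 and 49.1 CPM in the 4 Gcn2+/+ mutants and 22.2, 23.9, 19.1, 22.3 and 30.8 CPM in the 5 Gcn2-/- mutants, a difference of -0.45 ± 0.17 (log2; edgeR adjusted p = 0.355). Myh11 differed by -0.58 ± 0.22 (edgeR adjusted p = 0.37) and Tek, the endothelial receptor of angiopoietins, by -0.26 ± 0.11 (edgeR adjusted p = 0.442). Without replicate 4 of the Gcn2+/+ mutants, the library highest in meningeal genes, Pdgfrb had -0.21, Myh11 -0.40 and Tek -0.20. EdgeR and DESeq2 called 0 of the 10, and 4 (Tek, Myh11, Tagln and Pdgfrb) had an unadjusted p below 0.05, against 0.494%, 1.43% and 10% of all genes. Males and females differed in none of the 10 by a test. The smallest p was that of Cldn5, at -0.17 ± 0.08 for males minus females (edgeR adjusted p = 1), followed by Flt1 (0.05 ± 0.05) and Tek (-0.07 ± 0.07). For sex, edgeR and DESeq2 called 0 of the 10 and 0 had an unadjusted p below 0.05, against 0.0804%, 0.127% and 2.79% of all genes.

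Other genes of the vessel wall were taken from lists written for this work. Of 18 further smooth muscle genes tested, 16 had a difference above 0 between Gars mutant and wild-type Gcn2+/+ mice, against 52.7% of all genes, with a median of 0.49, against 0.01 over all genes. EdgeR called 0 of them, and 8 had an unadjusted p below 0.05, against 17.3% of all genes. Without the 2 libraries high in meningeal genes, 12 of the 17 then tested were above 0, with a median of 0.22 and 4 at an unadjusted p below 0.05. Of all 17295 genes in that fit, 8864 were above 0 and 2733 had an unadjusted p below 0.05. The smallest p were those of Smtn, a smooth muscle structural protein, with 1.52 ± 0.46, the muscle intermediate filament Des with 2.05 ± 0.67, and Myl9, a myosin light chain, with 0.85 ± 0.28. Smtn had 8.81, 24, 10.5 and 41.7 CPM in the 4 Gcn2+/+ mutants and 7.81, 6.45, 6.83 and 7.56 CPM in the controls, so replicates 2 and 4 of the mutants carried most of its difference. With the 2 libraries high in meningeal genes left out, Smtn had 0.97, Des 1.78 and Myl9 0.59. Leaving out mutant replicates 2 and 4 together gave Myh11 0.71, Acta2 0.57 and Tagln 0.63.

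The remaining endothelial, barrier and pericyte lists had medians nearer 0 in Gcn2+/+ mice. Of 28 other endothelial genes, 17 had a difference above 0 and the median was 0.06. Of 18 genes of the blood-brain barrier, 6 were above 0 and the median was -0.09, and of 16 other pericyte genes, 10 were above 0 with a median of 0.14. Over all genes, 52.7% were above 0. EdgeR called 0 in each of these lists, with 3, 2 and 4 genes at an unadjusted p below 0.05, against 17.3% of all genes. When the 2 libraries high in meningeal genes were left out, the medians were -0.05, -0.13 and 0.14, with 12, 6 and 10 genes above 0. Over all genes, 8864 of 17295 were then above 0.

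Among 21 genes of vascular growth factor signaling, 2 passed the test over all genes in Gcn2+/+ mice, and both fell, where 0.632% of all genes passed (110 of 17409, of which 73 fell). Pdgfd, a platelet-derived growth factor that activates the receptor encoded by Pdgfrb, had 27.7, 31.8, 38.9 and 32.1 CPM in the 4 controls and 19.7, 20.02, 20.4 and 18.3 CPM in the 4 mutants. It fell by 0.76 ± 0.14 on the log2 scale (edgeR adjusted p = 0.00974), lower in 4 of 4 mutants than in any control. Apln, the ligand of the apelin receptor on endothelial cells, had 66.3, 71.9, 62.0 and 73.0 CPM in controls and 44.9, 40.2, 39.8 and 44.1 CPM in mutants. It fell by 0.74 ± 0.15 (edgeR adjusted p = 0.02), again with no overlap. Both genes are also expressed outside the vessel wall in nervous tissue, so their source in whole cord is not given by these data.

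The receptors of these ligands did not pass the test, with Aplnr at 0.63 ± 0.35 (edgeR adjusted p = 0.374) and Pdgfrb as above. Of the other growth factor genes, 14 of the 21 in all were above 0, and the next smallest p was that of Tgfbr2, a receptor of transforming growth factor beta, at 0.54 ± 0.20 (edgeR adjusted p = 0.184). Aplnr is named as the receptor of Apln after its values were seen. In Gcn2-/- mice Pdgfd differed by -0.39 ± 0.14 and Apln by -0.15 ± 0.15, and in Gcn2+/- mice by -0.31 ± 0.13 and -0.13 ± 0.14, none of them called by edgeR. The difference from the Gcn2+/+ effect was 0.37 for Pdgfd and 0.59 for Apln in Gcn2-/- mice (edgeR adjusted p = 0.937 for both), and 0.45 and 0.61 in Gcn2+/- mice (edgeR adjusted p = 0.148 and 0.0752). A Gcn2 dependence of these falls was therefore not shown. The call of Apln was lost when replicate 2 or 4 of the controls or replicate 2 or 3 of the mutants was left out, with adjusted p from 0.0582 to 0.0762, and with the meningeal term (0.0804), whereas Pdgfd kept its call without any 1 of the 8 libraries compared. Pdgfd lost its call when only the groups compared were fitted (edgeR adjusted p = 0.171), and both genes lost it without mutant replicates 2 and 4 together (0.12 and 0.166). Both were called without the 2 libraries high in meningeal genes (edgeR adjusted p = 0.0369 for Pdgfd and 0.0414 for Apln). Over 18 alternatives each, the fitted difference ranged from -0.82 to -0.67 for Pdgfd and from -0.82 to -0.69 for Apln.

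In Gcn2+/- mice the medians of the lists lay below 0, at -0.26 for the other endothelial genes (4 of 28 above 0), -0.19 for the other smooth muscle genes, -0.13 for the barrier genes, -0.15 for the other pericyte genes and -0.25 for the growth factor genes, against -0.01 over all genes. The 16 meningeal genes were all below 0 there, with a median of -1.74, and the library highest in them was a control. Without the 2 libraries the medians were -0.16, -0.02, -0.11, -0.06 and -0.13, in the same order, and -0.44 for 15 meningeal genes. Of these lists 1 gene was called: Sncg, gamma-synuclein, listed for smooth muscle but also made by motor and sensory neurons, fell by 0.59 ± 0.09 on the log2 scale (edgeR adjusted p = 0.00421). It had 57.9, 46.1, 54.7 and 53.1 CPM in controls and 32.4, 33.4, 42.3 and 32.5 CPM in mutants. The Sncg call was lost with the title number as a term (edgeR adjusted p = 0.326) and when only the groups compared were fitted (edgeR adjusted p = 0.229). In Gcn2-/- mice the other smooth muscle genes had a median of 0.04 and the other endothelial genes 0.03, and edgeR called 0 genes of the 5 vascular lists, with 0 other endothelial genes and 1 gene in each of the other 4 lists at an unadjusted p below 0.05.

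For the interaction between Gcn2+/- and Gcn2+/+ mice, 5 listed vascular genes were called, all in the negative direction: Ecscr, a surface protein of endothelial cells (-2.73 ± 0.63), Sncg (-0.53 ± 0.13), and, from the smooth muscle list, Smtn (-2.53 ± 0.61), Mustn1 (-2.03 ± 0.50) and Des (-3.45 ± 0.89), with edgeR adjusted p from 0.0399 to 0.0434. EdgeR called 3.7% of all genes there, and it also called 7 of 13 Schwann cell and nerve root genes (median of the list -3.61) and 5 of 16 meningeal genes (median -4.41), all negative. Without the 2 libraries high in meningeal genes none of the 5 was called, with edgeR adjusted p from 0.109 to 0.144. Over all 17295 genes then tested, edgeR called only 2 in the positive and 1 in the negative direction. Ecscr then had -1.57, Smtn -1.55, Mustn1 -1.39 and Des -2.78, while Sncg kept -0.53. Des was named although it was the fourth by p in its list, because it was called.

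Genes of one cell type can rise and fall together from library to library. To see this apart from genotype, each gene's log2 CPM was taken as its deviation from its genotype mean, and the 45 pairs of vascular genes were correlated over the 24 libraries, with 100000 permutations and Benjamini-Hochberg adjustment over the 45 pairs. The smooth muscle genes moved together. Acta2 and Tagln had Pearson's r of 0.81 (permutation p = 0.00077, adjusted 0.00501) and Spearman's rho of 0.72 (permutation p = 0.00208, adjusted 0.0123). Myh11 and Acta2 had r of 0.79 (permutation p = 0.00028, adjusted 0.00501) and rho of 0.78 (permutation p = 0.00015, adjusted 0.00675). Myh11 and Tagln had r of 0.77 (permutation p = 0.0003, adjusted 0.00501) and rho of 0.75 (permutation p = 0.00033, adjusted 0.00742). Leaving out the 2 libraries farthest from the median of the first gene gave r of 0.76, 0.74 and 0.71 for these pairs, and leaving out the 2 libraries high in meningeal genes 0.64, 0.72 and 0.68.

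The highest r of the 45 joined genes of different cells, Pecam1 and Acta2, at 0.82 (permutation p = 0.00059, adjusted 0.00501), with rho of 0.63 (permutation p = 0.00641, adjusted 0.0262). It was 0.63 without the 2 libraries farthest from the median of Pecam1 and also 0.63 without the 2 high in meningeal genes. Within the lower and higher title numbers, 12 libraries each, the r was 0.90 and 0.73 for Pecam1 and Acta2, 0.83 and 0.94 for Acta2 and Tagln, 0.82 and 0.80 for Myh11 and Acta2, and 0.79 and 0.78 for Myh11 and Tagln. In all, 16 pairs had an adjusted p below 0.05 for r and 12 for rho. Between endothelial and smooth muscle genes the median r of 15 pairs was 0.45 with all libraries and 0.16 without the 2, whereas among smooth muscle genes it was 0.79 and 0.68. Flt1 stood apart from most of the other genes, with r from -0.03 to 0.38. The pericyte genes Pdgfrb and Rgs5 had r of 0.13.

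**Figure D4:**
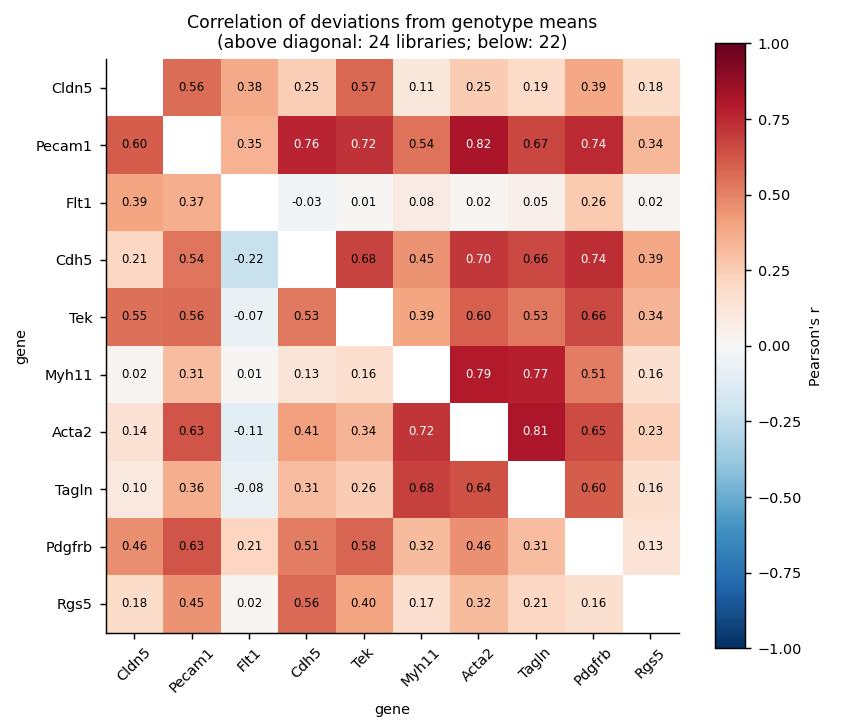
Pearson's r between the log2 CPM of each pair of vascular genes (both axes), as deviations from genotype means, over 24 libraries above the diagonal and over 22 below it, where the 2 libraries highest in meningeal genes are left out. The block of Myh11, Acta2 and Tagln has r from 0.77 to 0.81 above the diagonal and 0.64 to 0.72 below it, and the columns of Flt1 and Rgs5 are pale.

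The genes most alike in pattern to each class were found by their r with the mean of the class over the same 24 libraries, as a description. For the smooth muscle genes they were Anpep (0.90), Myl9 (0.90), Nrk (0.87), Col4a5 (0.87) and Vtn (0.87), and for the endothelial genes Iqgap1 (0.91), Piezo1 (0.86), Ctnna1 (0.85), Slco2b1 (0.83) and Anxa3 (0.83). Anpep and Vtn belong to the list of other pericyte genes, and Myl9 to that of other smooth muscle genes. The genes most like the pericyte pair were Nvl (0.86), Srp9 (0.85), Aim2 (0.84), Sdccag8 (0.83) and Pex19 (0.82), and all 5 lie on chromosome 1, as Rgs5 does.

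Rgs5 alone was therefore set against every gene, also as a description, with 24 libraries in common and no test. Of its 20 most alike genes 19 lie on chromosome 1, which holds 5.77% of the tested genes, and all 19 lie within 13.3 Mb of Rgs5 (chromosome 1, 169655501 to 169695813 on GRCm38). For the other 9 vascular genes, 0 to 3 of the 20 most alike genes lay on the gene's own chromosome. The gene most like Rgs5 was Pex19, a peroxisomal protein gene 2.47 Mb away (r = 0.93), followed by Copa (0.90), a coat protein gene of the Golgi, and Srp9 (0.88), a gene of the signal recognition particle 12.5 Mb away. None of these is a pericyte marker.

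Within 20 Mb of Rgs5, 105 of 294 tested genes had an r above 0.5 in size, of 130 among 1004 genes of the whole chromosome. The median size of r was 0.36 within 20 Mb and 0.16 over all genes. The 4 libraries lowest in Rgs5, at 57.2, 62.8, 69.2 and 77.8 CPM, were also the 4 lowest in Pex19, at 45.7 to 48.3 CPM, while the other 20 libraries had 61.5 to 88.2 CPM of Pex19. Pex19 was picked for its likeness to Rgs5 over these same libraries, so the shared lowest libraries are not separate evidence. The 4 libraries were replicates 1 and 3 of the Gcn2+/+ controls and replicates 2 and 3 of the Gcn2-/- controls, all with wild-type Gars. The strain label names more than 1 background, and whether sequence of different strains on chromosome 1 moves with these levels was not tested.

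**Figure D5:**
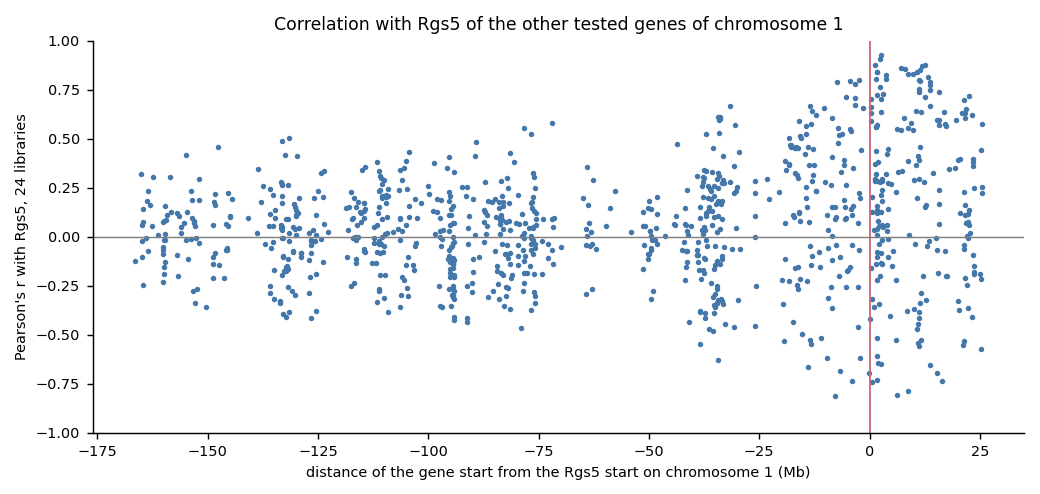
Pearson's r with Rgs5 (y axis, deviations from genotype means, 24 libraries) of the other tested genes of chromosome 1 against the distance of their start from the Rgs5 start in Mb (x axis; the line marks Rgs5). Values above 0.5 or below -0.5 are frequent within 20 Mb of Rgs5 (105 of 294 genes), and the rest of the 130 such genes lie farther away, with 11 of 45 genes at 20 to 40 Mb.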

How the data were processed

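Whole spinal cord RNA was sequenced (poly(A), stranded) in 24 libraries. The authors deposited expected counts and TPM for each gene, and the submitters' processing notes name RSEM 1.2.12 with Bowtie2 2.2.0. The genome build is not given in the sources used here, nor is the annotation. The deposited expected counts split reads that match several genes, and 72.0% of non-zero values were whole within 0.005. Symbols and positions came from GENCODE M21 (GRCm38), which matched 37607 of 38924 identifiers, and unmatched genes held 0.261% of counts. Tagln overlaps Pcsk7 on the other strand, and the setting used for strand in counting is not given in the sources used here.

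Expected counts were rounded, filtered with filterByExpr by genotype, scaled by TMM and fitted in edgeR 4.0.16 (R 4.3.3) by its robust quasi-likelihood F test, with genotype and sex as terms over all 24 libraries, Benjamini-Hochberg adjustment over 17409 genes and a threshold of 0.05. Correlations used log2 CPM with a prior count of 1. The edgeR fit of the Gcn2+/+ Gars comparison was also run on simulated counts with 200 changed genes. Those counts held no sex, title number or meningeal differences between libraries, so that run does not bear on them. Alternatives were DESeq2 1.42.0 and its size factors, no filter, no sex term, title numbers, a meningeal term, only the groups compared, and libraries left out, with 2 libraries chosen after seeing the data. Group sizes of 3 to 5 set the precision.

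The vascular genes and lists were chosen with earlier results of these data known. All 10 vascular genes are named. Fold changes are given in a comparison for called genes and the 3 with the smallest p, for other lists the 3 with the smallest p, and 5 most alike genes per class. Further differences of the 10, given beside these, were chosen after their values were seen.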

Additional observations from a re-analysis of the deposited data

Results flagged for a closer look

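Of 50 sets of 4 or 5 libraries (10 genes in 5 genotype groups), 6 held a library set far apart from the rest of its group by Dixon's ratio at the 95% level. Chance gives about 1 in 20 such sets where the sets are independent. These are not, because the 10 genes were measured in the same libraries. All 6 lay in the 2 libraries high in meningeal genes, so their number cannot be weighed against that share.

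Replicate 4 of the Gcn2+/+ Gars mutants, the library highest in meningeal genes, stood apart for 4 genes. It had 29.8 CPM of Cdh5 where the next library of its group had 17.8, 23.3 CPM of Acta2 where the next had 12.7, 18.1 CPM of Tagln where the next had 7.34, and 49.1 CPM of Pdgfrb where the next had 28.7. Replicate 3 of the Gcn2+/- mice with wild-type Gars, second in meningeal genes, stood apart for Pecam1, with 31.9 CPM against 23.5 in the next, and for Tek, with 23.9 against 17.7.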

How the results depend on the processing

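Of 965 values recomputed under alternatives, 921 kept their side of the threshold and, where they had one, their direction. Many of these were counts of called genes that stayed at 0. A change in the size of a difference alone was not counted. Counts of the 10 genes called differed under DESeq2 alone, with 2 in the Gcn2+/+ Gars comparison and 3 in the interaction of Gcn2+/- with Gcn2+/+, against 0 by edgeR, and the cause was not tested. Directions turned for Cldn5 in Gcn2-/- mice with title numbers in 2 sets (0.029) and over libraries left out (-0.26 to 0.041), and for Myh11 there (-0.33 to 0.0092). With the title number as a term they turned in Gcn2+/- mice for Pecam1 (0.014) and Cdh5 (0.015) and, between wild-type Gars groups of Gcn2+/- and Gcn2+/+, for Acta2 (-0.29) and Tagln (-0.24). With single libraries left out, the Gcn2+/+ differences ranged from 0.66 to 1.04 for Myh11, 0.63 to 1.11 for Acta2, 0.71 to 1.45 for Tagln and -0.49 to -0.34 for Cldn5, the smooth muscle minima without mutant replicate 4. Over all alternatives the smallest in size were 0.43 for Myh11, 0.38 for Acta2, 0.47 for Tagln and -0.28 for Cldn5. Genes called over all genes tested ranged from 11 to 648 in the Gcn2+/+ comparison and from 0 to 1784 in the interaction of Gcn2+/- with Gcn2+/+. The number of genes tested, 17409 in the main fit, differed between the alternatives. No paired analysis was possible because the labels give no replicate numbers and do not say what the shared title numbers mark, and the fit with the title number as a term is given above. For single genes, only libraries of the groups compared were left out in turn, and none for the 6-genotype test and sex.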
